A study of Mus musculus with 10 samples.

Results

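WAC positions are cytosines preceded by A, with A or T in front of that A, so that each lies in an AAC or a TAC on its own strand. They form the adenine-containing arm of the WRC motif (R is A or G), which activation-induced deaminase (AID) prefers. The positions were read from the listed base of each position in a sequenced fragment of mouse Smu, the switch region in front of the constant exons of the immunoglobulin mu gene, Ighm, on chromosome 12. A listed G was read as a C on the complementary strand. Of 560 listed positions, 243 C:G positions were used after leaving out 5 polymorphic positions and 1 thinly covered position, and 30 of these were WAC. There were 17 TAC and 13 AAC, 12 on the listed strand and 18 on the complementary strand. The base after the C was T at 14 positions, A at 9, C at 6 and G at 1. No source used here places the fragment on a genome build, so that a position is named by its listed base and its number in the fragment (G40 is a C on the complementary strand).

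DNA came from mouse spleen B cells of 3 genotypes, UNG-/- (4 libraries), UNG+/+ (4 libraries) and AID-/- (2 libraries), all stimulated with LPS, IL4 and BAFF and sorted by loss of the dye CFSE for cells that had divided at least 5 times. UNG-/- cells lack the uracil-DNA glycosylase UNG and have AID, UNG+/+ cells have both enzymes, and the AID-/- cells, which lack the deaminase, were the negative controls and measure errors of amplification and sequencing. The sources used here do not give the age, sex or strain of the mice. The reference base of the AID-/- tables differed from that of the UNG tables at the 5 polymorphic positions. All 30 WAC positions had the same 5 bases around the C in both, and none lay within 5 bases of a polymorphic position. The purity of the sort cannot be checked from substitution counts.

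As background, AID deaminates cytosine to uracil in transcribed immunoglobulin genes, and Smu is its main target in B cells that prepare for class switching. Replication reads an uracil left in place as T, which gives a C to T transition. UNG excises the uracil and leaves an abasic site, which may be repaired without error, broken in the course of class switching, or copied by translesion polymerases, REV1 among them, and copying past such sites can give C to G and C to A transversions as well as transitions. Mismatch repair also acts on the U:G mispair.

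The following 15-base windows (the last base of each window lies 7 bases after the C), written 5′ to 3′ on the strand that carries the C with the WAC in capitals, are shown because the results turn on these positions. The first 6 were the highest WAC positions of a genotype.
G40: ctcctTACtgattct
C506: cgctaAACtgaggtg
C287: agctgTACagaattg
G315: gcctcAACtgcaggt
G200: tttgaTACcattctt
G525: ttgctTACctcagag
The next 6 had the largest (G100, G189, G176) and smallest (C263, C179, G284) changes between UNG-/- and UNG+/+.
G100: ataaaAACtaaaaac
G189: tctttAACaaccagg
G176: ggaagTACatttact
C263: atggaTACgcagaag
C179: aaatgTACttcctgg
G284: ttctgTACagctgtg
The last 4 share at least 5 bases with a position above or with each other.
G170: acattTACtggcaac
G356: gtcatTACtgtggct
G147: cattaAACcacattg
G186: ttaacAACcaggaag
G284 and C287 belong to a single palindrome, CTGTACAG, in which each strand presents a TAC in the same 8 bases. Over the fragment, 19 WAC positions share their 5-base context with another, in 9 such contexts, and 28 have the C of another WRC motif within 10 bases.

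Libraries held between 112909908 and 255310423 base reads of Phred quality above 20, and the median coverage of a WAC position was between 278394 and 642514 reads per library. Coverage was lowest at G556, at the end of the fragment, with 1734 to 9154 reads. It was also far below the median at G525 (13558 to 66842 reads), C518 (21795 to 96581) and C506 (34283 to 140806). Frequencies are given as substituted reads per 10000 such reads, and excess is what remains of it after the AID-/- mean (2 libraries) is subtracted position by position. Reads carry no molecular identifiers, so that several reads may come from 1 molecule, and errors are given as the SD over libraries unless marked SE. The ± of a log2 fold change tested at a single position is its standard error (SE). The libraries of a genotype are not stated to be single animals, and p-values measure the spread between libraries, part of which may be technical.

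WAC positions were substituted most often without UNG. Averaged over the 30 positions, the frequency was 89.1, 93.8, 71.5 and 57.6 per 10000 in the UNG-/- libraries 1 to 4, against 25.4, 22.3, 18.8 and 20.6 in the UNG+/+ libraries 1 to 4 and 3.31 and 3.64 in the AID-/- libraries. The 3 genotypes did not overlap. The mean excess was 74.5 ± 16.7 per 10000 in the absence of UNG and 18.3 ± 2.80 in its presence (SD over 4 libraries each), a ratio of 4.08, or 2.01 ± 0.20 on the log2 scale (SE), with 1.66 and 2.26 as the lowest and highest value of the libraries paired by number. Libraries 1 and 2 and libraries 3 and 4 differed in the share of bases that passed the quality filter, and the log2 ratio was 2.12 within the first pair and 1.91 within the second. WAC made up 12.3% of the C:G positions used and held 37.5% ± 1.55 of their summed excess in UNG-/- cells, against 27.2% ± 3.02 in UNG+/+ cells (SD over 4 libraries each). The lowest UNG-/- library, at 35.2%, lay above the highest UNG+/+ library, at 29.7%. In UNG-/- cells 9 of the 20 positions with the highest mean excess were WAC, the first and second being G40 and C506, and in UNG+/+ cells 5 of 20 were.

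Single positions were tested with edgeR (quasi-likelihood test on substituted reads with coverage as offset, Benjamini-Hochberg adjustment over all C:G positions tested). For all substitutions, 29 of 29 tested WAC positions were higher in UNG-/- than in UNG+/+ cells at an adjusted p of 0.05, where 56.1% of all 237 C:G positions tested were. G556 was not tested, having too few substituted reads. The 4 UNG-/- libraries did not overlap the 4 UNG+/+ libraries at any of the 29, as at 48.9% of all C:G positions tested. The median log2 fold change was 1.90 over the 29 WAC positions, 0.65 over all C:G positions tested and 0.52 over those outside WAC. TMM scaling, which removes differences in the total load of substitutions, moved the median of all C:G positions to -0.10 and that of WAC to 1.11. Under that scaling 26 of 29 WAC positions were still higher and 0 lower, against 24.5% higher among all C:G positions, of which 68 were lower.

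Median fold changes of the frequency were smaller in the other classes of C:G positions, as the plot of fold changes by class shows. The closest relatives of WAC by sequence are WGC, with G in place of the A before the C, here split into WGCW (28 positions) and the 16 other WGC positions, and SAC (20 positions), with C or G in place of the first A or T. Median log2 fold changes were 1.11 over 16 WGC positions outside WGCW, 0.98 over 28 WGCW positions, 1.24 over 20 SAC positions and 0.02 over 60 SYC positions (a pyrimidine before the C and C or G before that, the AID coldspot). These medians describe the classes, and no test was made between them. By edgeR, 16 of 16 WGC positions outside WGCW were also called higher in UNG-/- than in UNG+/+ cells. The same held at 24 of 28 WGCW and 16 of 20 SAC positions. The ratio of mean excess in UNG-/- over UNG+/+ cells was 2.61 at WGC outside WGCW and 2.26 at WGCW, against 4.08 at WAC. At SAC, where the excess was far lower in both genotypes, this ratio was above that at WAC. The log2 fold changes are of frequencies from which the AID-/- level is not subtracted, and at SAC they reached 2.21 (G234).

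**Figure D1:**
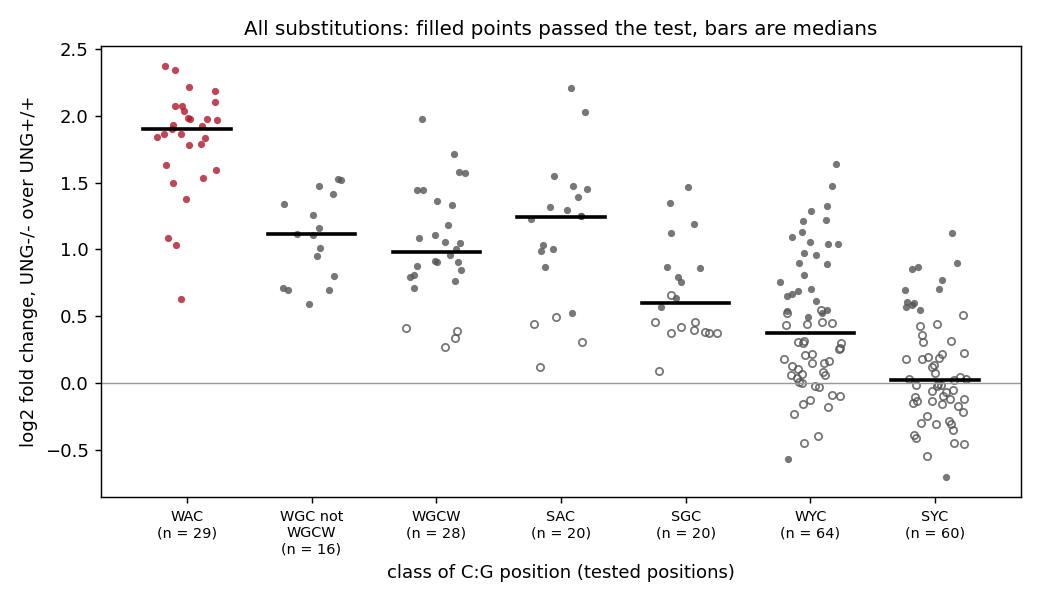
Log2 fold change of the substitution frequency in UNG-/- over UNG+/+ cells (vertical axis) at each tested C:G position, by class (horizontal axis); filled points passed the test at an adjusted p of 0.05, open points did not, and bars are class medians. All 29 WAC points lie between 0.63 and 2.37 with a median of 1.90, and the medians of the other classes lie between 0.02 and 1.24.

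The UNG genotypes placed WAC differently beside the other hotspots. WGCW had a mean excess of 78.9 ± 16.5 per 10000 in UNG-/- cells, near the WAC mean given above, and 34.8 ± 5.02 in UNG+/+ cells, where WAC had 18.3 ± 2.80. These SDs do not measure the difference between the 2 classes, and no ratio of WAC to WGCW within a library was computed. WGC outside WGCW had 51.8 ± 11.2 without UNG and 19.9 ± 3.23 with it (SD over 4 libraries each). The log2 ratio of WAC to these WGC positions was 0.52 ± 0.016 in UNG-/- cells, with 0.51 to 0.55 over the libraries, and -0.12 ± 0.068 in UNG+/+ cells, with -0.18 to -0.02. The order turned in UNG-/- cells with the median over positions in place of the mean, where the log2 ratio was -0.11 in UNG-/- and -0.70 in UNG+/+ cells. SAC, which differs from WAC in 1 base, was far lower, with a mean excess of 12.7 ± 2.84 per 10000 in UNG-/- cells and 2.36 ± 0.424 in UNG+/+ cells. WAC exceeded SAC by 61.9 ± 13.8 per 10000 in UNG-/- cells and by 15.9 ± 2.88 in UNG+/+ cells (SD over 4 libraries each).

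Against the AID-/- controls, 28 of 29 tested WAC positions were higher in UNG-/- cells (58.6% of all C:G positions tested were) and 26 of 29 in UNG+/+ cells (40.1% of all). In each of these genotypes 28 of 28 WGCW positions and 16 of 16 WGC positions outside WGCW were higher than in AID-/- cells. The WAC position that was not higher in UNG-/- cells was C263, which was not higher in UNG+/+ cells either. The other two that did not pass in UNG+/+ cells were G163 (log2 fold change 0.38 ± 0.29, adjusted p = 0.35) and C415 (0.64 ± 0.32, adjusted p = 0.10), named because they failed. C263 is the only WAC followed by G, and so the only WAC in a CpG dinucleotide. It had 13.7, 15.3, 18.5 and 12.6 per 10000 in UNG-/- libraries, 8.78, 7.45, 10.1 and 12.4 in UNG+/+ libraries and 7.89 and 12.2 in AID-/- libraries. The 3 genotypes came close together or overlapped there, and the AID-/- mean of 10.0 was the highest of any WAC position. At the other 29 WAC positions the AID-/- mean ran from 0 at the thinly covered G556, and 1.24 at G100 without it, to 7.97, with a median of 3.02. At the 9 CpG positions of the fragment it ran from 2.89 to 10.05 with a median of 6.44. At the 234 other C:G positions it ran from 0 to 26.8 with a median of 3.94, so that higher levels also occurred outside CpG. Whether the CpG bears on the level at C263 was not tested. UNG-/- stayed above UNG+/+ at C263 by a log2 fold change of 0.63 ± 0.22 (adjusted p = 0.0082). This call was lost without UNG-/- replicate 3 (log2 fold change 0.51), without UNG+/+ replicate 2 (0.52) and with replicates 3 and 4 alone (0.47), and the sign turned to -0.12 under TMM scaling.

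The load was unequal among the WAC positions. The mean frequency in UNG-/- cells ran from 12.9 at G163 to 295.1 at G40 without the thinly covered G556, a 22.8-fold range with a median of 39.8 over all 30. In UNG+/+ cells it ran from 3.60 at G163 to 83.0 at C506, a 23.0-fold range with a median of 12.9. The 5 highest positions held 48.2% of the summed WAC excess in UNG-/- cells and 50.6% in UNG+/+ cells. Both genotypes ranked the positions alike, with a Spearman correlation of 0.936 between their mean excesses over 29 positions. Between pairs of libraries of a UNG genotype it was 0.919 to 0.989, for frequencies without AID-/- subtraction. These values are descriptions, as the positions share libraries and coverage, and the mean excesses also share the subtracted AID-/- mean.

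G40, a TAC followed by T, was the highest WAC position in UNG-/- cells. Its frequency was 339.9, 346, 280.1 and 214 per 10000 in UNG-/- libraries, 84.7, 75.7, 64.4 and 73.7 in UNG+/+ libraries and 4.26 and 4.59 in AID-/- libraries. No library of a genotype reached those of the next one, and the log2 fold change of UNG-/- over UNG+/+ was 1.98 ± 0.24 (adjusted p = 1.2e-15). C506, an AAC followed by T, was the highest in UNG+/+ cells. It had 339, 338, 244 and 217 per 10000 in UNG-/- libraries, 109, 82.2, 67.3 and 73.9 in UNG+/+ libraries and 2.68 and 2.76 in AID-/- libraries, with a log2 fold change of 1.78 ± 0.21 (adjusted p = 1.2e-15). Here the libraries fell into the same order of genotypes with wide gaps.

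C287, on the listed strand of the palindrome, was the highest WAC followed by A. It had 237, 255, 182 and 141 per 10000 in UNG-/- libraries, 65.2, 54.5, 48.3 and 50.2 in UNG+/+ libraries and 7.57 and 8.36 in AID-/- libraries, a log2 fold change of 1.90 ± 0.23. G315, which shares AACTG with C506, averaged 188 ± 48.4 in UNG-/- cells, 49.5 ± 9.62 in UNG+/+ cells (SD over 4 libraries each) and 2.80 in AID-/- cells. The highest WAC followed by C in UNG-/- cells was G200, with 127 ± 29.6 in UNG-/- cells, 31.1 ± 3.79 in UNG+/+ cells and 2.88 in AID-/- cells. In UNG+/+ cells G525 was the fifth highest WAC and averaged 115 ± 19.7 in UNG-/- cells, 37.1 ± 5.51 in UNG+/+ cells and 3.33 in AID-/- cells. None of these positions overlapped between the UNG genotypes.

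**Figure D2:**
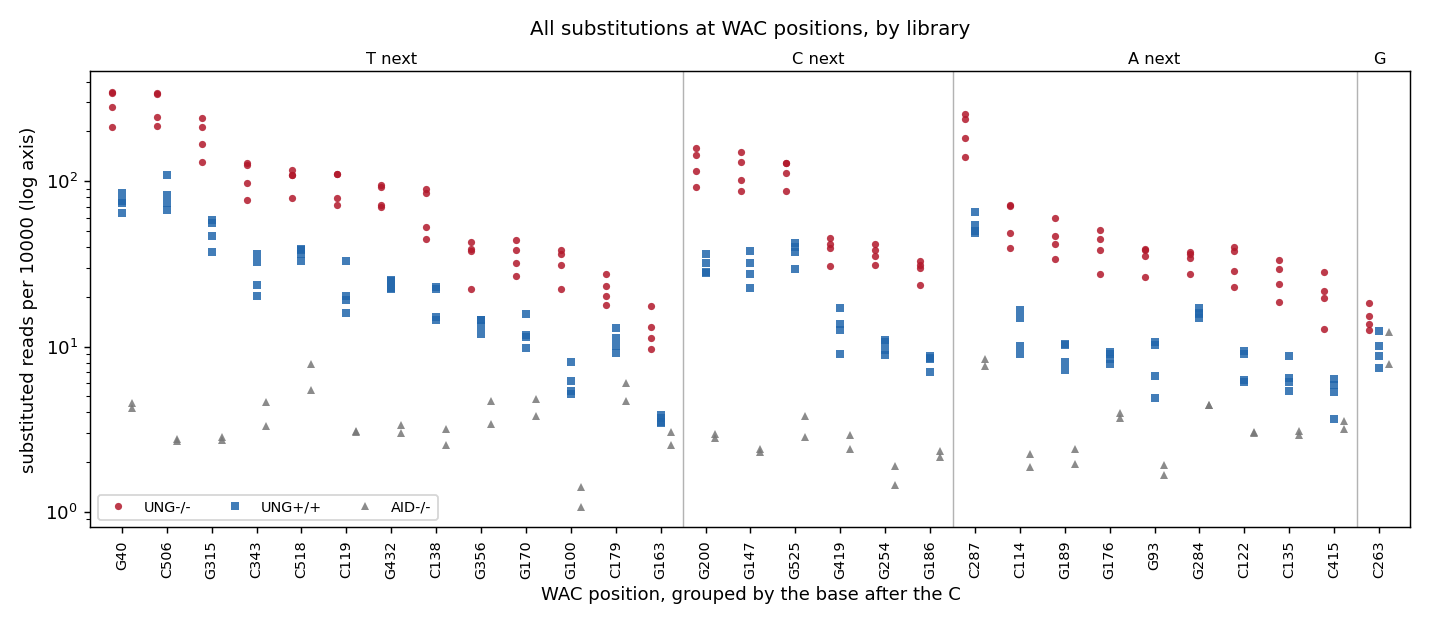
Substituted reads per 10000 (vertical log axis) in each library at 29 WAC positions (horizontal axis), grouped by the base after the C and ordered by the UNG-/- mean; circles are UNG-/-, squares UNG+/+ and triangles AID-/- libraries, and G556 is left out for its low coverage. The circles lie above the squares at all 29 positions, and the genotypes come closest at C263.

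The largest changes were at positions of moderate load. G100 averaged 32.0 ± 7.29 per 10000 in UNG-/- cells, 6.20 ± 1.32 in UNG+/+ cells and 1.24 in AID-/- cells, a log2 fold change of UNG-/- over UNG+/+ of 2.37 ± 0.22. G189 averaged 45.6 ± 10.9 in UNG-/- cells, 8.99 ± 1.59 in UNG+/+ cells and 2.17 in AID-/- cells, a log2 fold change of 2.34 ± 0.22. For G176 the means were 40.2 ± 9.95 in UNG-/- cells, 8.65 ± 0.639 in UNG+/+ cells and 3.83 in AID-/- cells, a log2 fold change of 2.22 ± 0.22. All 3 lie on the complementary strand, in a WAC followed by T (G100) or A, and their libraries did not overlap.

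The smallest changes after C263 were at C179 and G284. C179 had 23.3, 27.5, 20.2 and 17.9 per 10000 in UNG-/- libraries, 12.9, 9.15, 10.1 and 11.2 in UNG+/+ libraries and 4.66 and 6.01 in AID-/- libraries, a log2 fold change of 1.03 ± 0.21 (adjusted p = 3.0e-06). G284 had 37.4, 34.2, 36.2 and 27.4 in UNG-/- libraries, 14.9, 15.7, 16.0 and 17.0 in UNG+/+ libraries and 4.42 and 4.45 in AID-/- libraries, a log2 fold change of 1.09 ± 0.21 (adjusted p = 1.0e-06). Neither overlapped between the UNG genotypes, and under TMM scaling both lost the call (log2 fold change 0.26 at C179 and 0.32 at G284).

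The same few bases around the C went with very different levels. In the palindrome CTGTACAG, C287 was substituted 5.99 ± 1.14 times as often as G284 on the opposite strand in UNG-/- libraries and 3.46 ± 0.659 times as often in UNG+/+ libraries (mean ratio within a library, SD over 4 libraries each). C287 was the higher of the pair in 4 of 4 UNG-/- libraries and 4 of 4 UNG+/+ libraries. G40, G170 and G356 share the 6 bases TTACTG, with G170 at 35.2 ± 7.69 per 10000 in UNG-/- and 12.2 ± 2.49 in UNG+/+ cells and G356 at 35.3 ± 8.91 in UNG-/- and 13.6 ± 1.23 in UNG+/+ cells. G40 exceeded G170 by 8.39 ± 0.534 times in UNG-/- and 6.27 ± 1.09 times in UNG+/+ libraries. AACCA occurs at G147, with 117 ± 28.5 in UNG-/- and 29.9 ± 6.38 in UNG+/+ cells, and at G186, with 29.4 ± 4.01 in UNG-/- and 8.22 ± 0.797 in UNG+/+ cells. Other pairs were near each other, such as C119 and G432 in TACTA, whose ratio was 1.13 ± 0.0814 in UNG-/- and 0.923 ± 0.264 in UNG+/+ libraries. The positions set side by side here follow from their shared bases, and C119, G147, G170, G186, G356 and G432 were named after their values were seen.

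The base after the C went with the level. In UNG-/- cells the mean excess was 94.2 ± 20.9 per 10000 at the 14 positions followed by T, 74.9 ± 15.0 at the 6 followed by C and 51.5 ± 13.0 at the 9 followed by A. In UNG+/+ cells it was 24.1 ± 4.03 at those followed by T, 19.0 ± 2.51 at those followed by C and 10.8 ± 1.64 at those followed by A (SD over 4 libraries each). WAC followed by a pyrimidine (20 positions) exceeded WAC followed by a purine (10 positions) by 0.93 ± 0.067 on the log2 scale in UNG-/- and 1.22 ± 0.054 in UNG+/+ libraries, and did so in every library of both genotypes. The positions followed by A include C287, the third highest WAC of all in UNG-/- cells, so that the split by the next base leaves a wide range on both sides. The 2 log2 values are descriptions of the positions at hand and carry no test.

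For all substitutions together, the mean excess differed less by the first base of the motif and by the strand. AAC and TAC had mean excesses of 77.2 ± 18.5 and 72.5 ± 15.3 per 10000 in UNG-/- cells and of 18.6 ± 4.02 and 18.0 ± 1.95 in UNG+/+ cells. Their log2 ratio was 0.08 ± 0.054 in UNG-/- and 0.03 ± 0.18 in UNG+/+ libraries, and in UNG+/+ cells its range, -0.15 to 0.19, included 0. WAC on the listed strand had 81.6 ± 19.6 and WAC on the complementary strand 69.8 ± 14.8 in UNG-/- cells, with 20.2 ± 3.96 and 17.0 ± 2.14 in UNG+/+ cells. The log2 ratio of the strands was 0.22 ± 0.067 in UNG-/- and 0.23 ± 0.13 in UNG+/+ libraries. It was 0.76 in UNG-/- and 0.49 in UNG+/+ cells with the median over positions, 0.15 in UNG-/- and 0.07 in UNG+/+ cells without the highest position of each strand, and -0.05 in UNG+/+ cells for C to T alone. All 6 WAC followed by C lie on the complementary strand, so that strand and next base are not independent here.

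The kind of substitution differed between the genotypes. In UNG-/- cells C to T made up 100.7% ± 0.225 of the summed WAC excess (above 100% because C to A lay slightly below the AID-/- level), and in UNG+/+ cells 81.2% ± 1.74 (SD over 4 libraries each). The difference was 19.4 ± 0.877 percentage points (SE), with 17.8 and 21.6 as the lowest and highest value of the libraries paired by number. C to T was higher in UNG-/- than in UNG+/+ cells at 29 of 29 tested WAC positions, where 84.3% of all C:G positions tested were, with a median log2 fold change of 2.18 over WAC and 1.47 over all C:G positions tested. Under TMM scaling 23 of 29 were higher and 1, C263, was lower, against 16.9% higher among all C:G positions.

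C to G substitutions at WAC stood above the AID-/- level in UNG+/+ libraries. Averaged over the 30 positions, C to G was 0.319, 0.417, 0.596 and 0.589 per 10000 in UNG-/- libraries, 4.08, 3.32, 2.47 and 2.73 in UNG+/+ libraries and 0.465 and 0.596 in AID-/- libraries. The UNG-/- and AID-/- libraries lay in the same range, and every UNG+/+ library was above both. C to G took 14.2% ± 1.69 of the summed WAC excess in UNG+/+ cells (SD, n = 4). This share includes C506, the highest of all C:G positions in C to G excess, and was not computed without it. Of 28 tested WAC positions, 12 were higher in UNG+/+ than in AID-/- cells (23.6% of all C:G positions tested) and 13 were lower in UNG-/- than in UNG+/+ cells (28.3% of all). At WGCW these counts were 20 and 22 of 27, and at WGC outside WGCW 5 and 4 of 11. The median log2 fold change of UNG-/- over UNG+/+ was -1.19 at WAC, -2.90 at WGCW and -1.20 at WGC outside WGCW. C to G took 13.2% ± 1.80 of the excess at WGCW in UNG+/+ cells and 3.44% ± 0.933 at WGC outside WGCW. In UNG-/- against AID-/- cells 0 of 28 WAC positions were called in either direction by edgeR, DESeq2 or limma, where edgeR called 0% of all C:G positions tested higher and 0.524% lower. The only WAC with an unadjusted edgeR p under 0.05, 1 of 28, was G419, named for this, which was on the lower side in UNG-/- cells (log2 fold change -1.02 ± 0.48).

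These C to G substitutions were found chiefly at WAC followed by T. At the 14 WACT positions the mean C to G excess was -0.00386 ± 0.127 per 10000 in UNG-/- and 5.16 ± 1.31 in UNG+/+ cells, at the 9 WACA positions -0.0662 ± 0.178 in UNG-/- and 0.158 ± 0.0963 in UNG+/+ cells, and at the 6 WACC positions -0.124 ± 0.115 in UNG-/- and 0.859 ± 0.509 in UNG+/+ cells (SD over 4 libraries each). C to G was lower in UNG-/- than in UNG+/+ cells at 11 of 13 tested WACT positions, at 2 of 5 WACC positions and at 0 of 9 WACA positions by edgeR. At the 9 WACA positions DESeq2 called 1, limma 0, and 1 had an unadjusted edgeR p under 0.05. C to G made up 21.2% ± 1.93 of the excess at WACT in UNG+/+ cells, 4.32% ± 2.01 at WACC and 1.47% ± 0.876 at WACA, as in the plot of substitution types. The WACT share includes C506, and shares by first base without C506 are given below. WACT exceeded WACA in C to G excess by 0.0623 ± 0.101 per 10000 in UNG-/- libraries and by 5.004 ± 1.28 in UNG+/+ libraries, 3.65 being the lowest UNG+/+ library. Without C506 the UNG+/+ difference was 2.78.

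The type of substitution also differed by the first base of the motif in UNG+/+ cells. C to G made up 22.0% ± 2.67 of the excess at AAC, with 19.8% to 25.9% over the libraries, and 7.998% ± 0.932 at TAC, with 7.04% to 9.27%. C to T made up 75.04% ± 4.00 at AAC and 86.2% ± 0.973 at TAC (SD over 4 libraries each). C506 is an AAC, and without it C to G was 12.3% ± 1.36 at AAC, with 10.8% to 13.99%, still above the TAC range, while C to T was 85.6% ± 2.66. Where T followed, C to G was 28.8% ± 3.01 at the 6 AACT positions and 13.2% ± 2.35 at the 8 TACT positions. Without C506 it was 18.0% ± 2.34 at AACT, and the libraries overlapped (14.8% to 19.8% at AACT, 11.2% to 16.5% at TACT). By position, edgeR called C to G lower in UNG-/- than in UNG+/+ cells at 7 of 13 AAC and 6 of 15 TAC tested. The values without C506 and those where T followed were added after the data were seen.

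**Figure D3:**
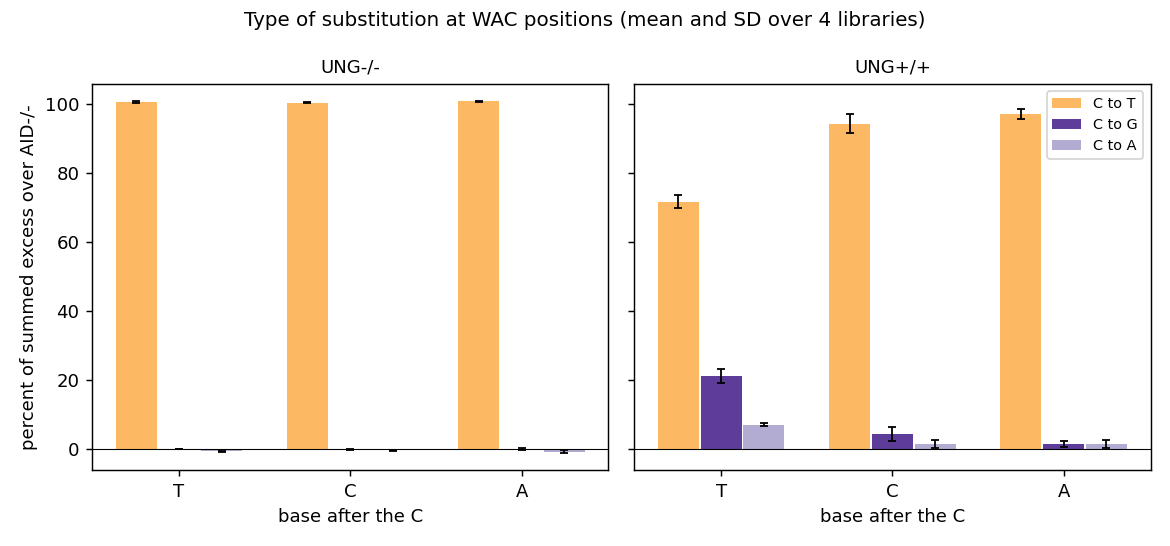
Share of the summed excess over AID-/- that was C to T, C to G or C to A (vertical axis, percent; bars are means and whiskers SD over 4 libraries) at WAC positions by the base after the C (horizontal axis), in UNG-/- cells (left) and UNG+/+ cells (right). In UNG-/- cells the C to T bars stand between 100.5% and 100.8%, and in UNG+/+ cells C to G reaches 21.2% where T follows, against 4.32% where C follows and 1.47% where A follows.

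The highest C to G position in UNG+/+ cells was C506, also the first of all 243 C:G positions in C to G excess. Its C to G frequency was 1.25, 0.915, 1.85 and 1.20 per 10000 in UNG-/- libraries, 52.2, 37.3, 25.7 and 25.6 in UNG+/+ libraries and 1.18 and 1.12 in AID-/- libraries. The UNG-/- values rest on 8, 5, 26 and 11 C to G reads and the AID-/- values on 11 and 15. UNG-/- libraries overlapped the AID-/- libraries and lay far below every UNG+/+ library, with a log2 fold change of UNG-/- over UNG+/+ of -4.69 ± 0.39 (adjusted p = 3.8e-09). C to G was 41.5% of the excess of C506 in UNG+/+ cells, where C to T was 53.6%. Among WAC positions the next were G40, the ninth of all C:G positions, with 0.681 ± 0.12 in UNG-/- and 7.86 ± 1.39 in UNG+/+ cells (log2 fold change -3.51 ± 0.33), and G315, with 0.407 ± 0.11 in UNG-/- and 6.33 ± 1.84 in UNG+/+ cells (log2 fold change -3.93 ± 0.39). G315 has the same 5 bases as C506, yet C506 had 5.56 ± 0.939 times its C to G frequency in UNG+/+ libraries and 1.68 ± 0.192 times its total.

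C287 and G315 differ in the first base of the motif (T at C287, A at G315) and in the base after the C, and had like totals. In UNG+/+ cells their totals averaged 54.6 ± 7.56 and 49.5 ± 9.62 per 10000. C to G at C287, followed by A, was 0.364, 0.475, 0.894 and 1.12 in UNG-/- libraries, 3.69, 1.04, 1.23 and 1.18 in UNG+/+ libraries and 0.367 and 1.18 in AID-/- libraries. C to G at G315, followed by T, was 0.44, 0.449, 0.493 and 0.245 in UNG-/- libraries, 8.31, 7.14, 4.04 and 5.82 in UNG+/+ libraries and 0.304 and 0.265 in AID-/- libraries. All 4 UNG+/+ values of G315 lay above those of C287, and C287 did not pass the test of UNG-/- against UNG+/+ (log2 fold change -1.28 ± 0.49, adjusted p = 0.052). Among the 13 WACT positions tested, C179 and G356 did not pass, and the calls at G100 and G163 were lost under TMM scaling, with limma, with replicates 1 and 2 alone and in the fit with libraries paired by number (log2 fold change -1.31 at G100 and -1.11 at G163, adjusted p = 0.079 for both). The G163 call was also lost when any 1 of the UNG-/- libraries or UNG+/+ library 1, 3 or 4 was left out (log2 fold change -1.29 to -0.80), and the G100 call without UNG-/- library 3 or 4 or UNG+/+ library 4 (-1.65 to -1.01). G170 lost its call with replicates 3 and 4 alone (log2 fold change -0.69). These 5 positions were named for their failures.

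**Figure D4:**
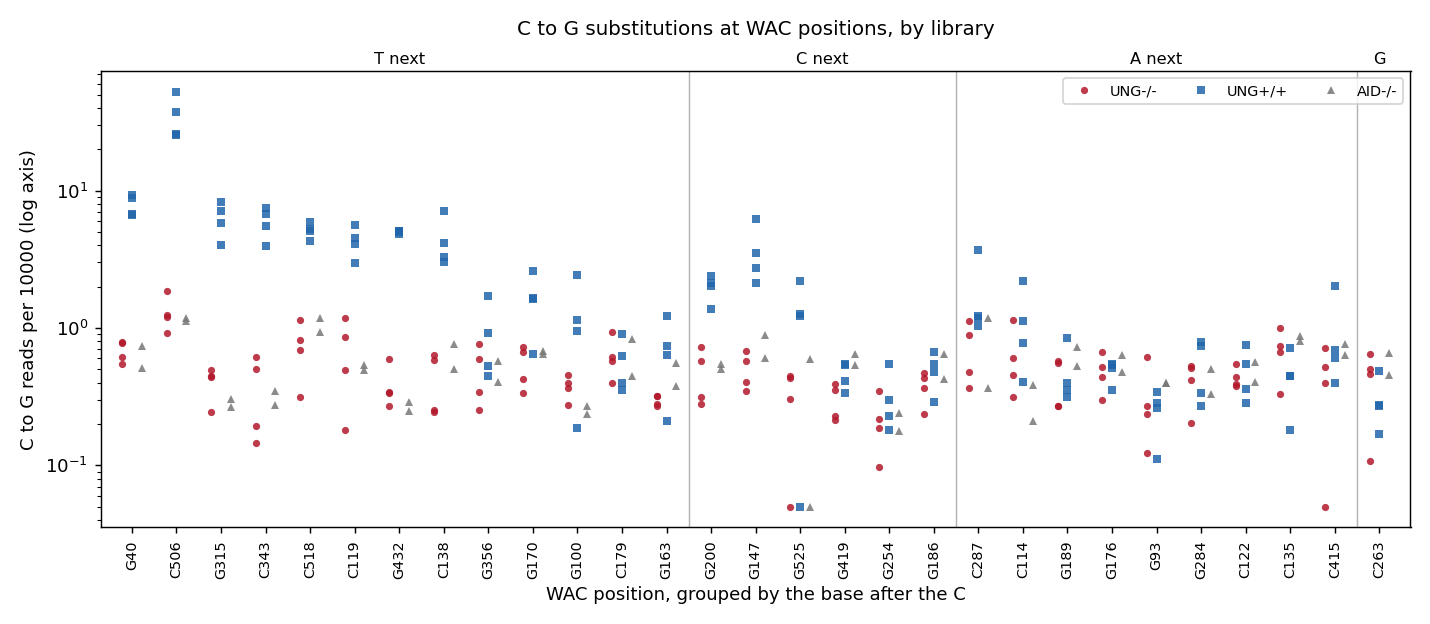
C to G reads per 10000 (vertical log axis) in each library at the same 29 WAC positions in the same order (horizontal axis); circles are UNG-/-, squares UNG+/+ and triangles AID-/- libraries, and a library with no C to G read at a position is drawn at 0.05. UNG+/+ squares stand clear of the other libraries at the higher positions followed by T, reaching 52.2 at C506, while those followed by A lie mostly among them.

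C to A substitutions were also more frequent at WAC in UNG+/+ cells. Averaged over the 30 positions, C to A was 1.23, 1.17, 1.45 and 1.31 per 10000 in UNG-/- libraries, 2.74, 2.66, 2.49 and 2.47 in UNG+/+ libraries and 1.67 and 1.83 in AID-/- libraries. UNG-/- libraries lay below the AID-/- libraries and UNG+/+ libraries above them. It was lower in UNG-/- than in UNG+/+ cells at 11 of 28 tested WAC positions, where 20.3% of all C:G positions tested were, and these were 8 of 13 WACT, 1 of 5 WACC and 2 of 9 WACA positions. C506 again had the largest change, with 0.55 ± 0.161 per 10000 in UNG-/- and 4.89 ± 1.54 in UNG+/+ cells (log2 fold change -2.99 ± 0.39, adjusted p = 9.4e-08). C to A took 4.62% ± 0.299 of the summed WAC excess in UNG+/+ cells (SD, n = 4). The number of C to A calls was 5 under TMM scaling, where 1 position, C415, was called higher (log2 fold change 1.17 ± 0.31, adjusted p = 0.021), and 4 with replicates 3 and 4 alone. Among all 231 C:G positions tested, 15 were lower and 5 higher under TMM scaling. Without that scaling, 17 of 28 WGCW positions and 7 of 15 WGC positions outside WGCW were lower for C to A.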

How the data were processed

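Substitutions in a fragment of Smu amplified from genomic DNA were counted in 10 libraries of 3 genotypes, grouped and numbered by their titles. Per the labels' protocols the products of a proofreading polymerase were sheared and made into Illumina libraries. The tools listed in the submitters' processing notes, with no roles, are SAMtools 0.1.11, CASAVA 1.7 and Novoalign 2.07.04. Per the file headers, the deposited tables give counts of reads, of reads with base quality above Phred 20 and of each substitution for every position, and these counts were used. Errors of polymerase and sequencing enter every count.

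Frequencies were substituted over filtered reads. edgeR 4.0.16 (quasi-likelihood, R 4.3.3) fitted the substituted reads of all C:G positions with at least 10 in at least 2 libraries, all 10 libraries together, with log coverage as offset and no TMM scaling, and Benjamini-Hochberg adjustment at 0.05 over all positions tested. The fit was tested on simulated data. Values over classes of positions have no test. Alternatives were TMM scaling, DESeq2 1.42.0, limma 3.58.1 on log2 of the fraction plus 1e-05, and no filter or 50 reads. Further ones were the 2 genotypes compared alone, a replicate block, each library left out, and replicates 1 and 2 or 3 and 4 alone. Other values used Python 3.11.15, pandas 2.3.3 and numpy 2.4.6, and figures matplotlib 3.10.9. The symbol and chromosome of Ighm are those of RefSeq GRCm38.p6, and no coordinates are given.

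The members, classes and tests were chosen with earlier results of these data known. Named positions were the 5 highest of each UNG genotype, the 3 largest and 3 smallest log2 fold changes, the 3 highest in C to G, any that failed the test, any within 5 bases of a polymorphic position, and the highest of each first base, next base and strand. Others are said to be named after their values were seen.

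Libraries of UNG-/- and UNG+/+ cells with the same number deviated together from their genotype's mean over 227 C:G positions. The correlations were 0.535, 0.220, 0.270 and 0.231. Because each exceeded 0.1, the numbers were taken to pair libraries in the replicate block and in the ranges over libraries paired by number. The main tests were not paired. Some libraries of different numbers correlated as highly, within libraries 1 and 2 (0.446 for UNG-/- 2 with UNG+/+ 1) and within 3 and 4 (0.461 for UNG-/- 4 with UNG+/+ 3), while every correlation across these pairs was below 0, so that pairing by number and 2 blocks of libraries cannot be told apart. Libraries 1 and 2 of the UNG genotypes also had fewer bases pass the quality filter (97.9% to 98.3%) than libraries 3 and 4 (98.7% to 99.01%).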

Additional observations from a re-analysis of the deposited data

How the results depend on the processing

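Of 1075 values recomputed under an alternative, 1017 were rated as unchanged. For a single position this meant the same direction and the same side of the threshold. For a count of calls it meant a count within 1.5 times of the main one, so that single calls could be lost. Other values had to stay within the error (SD over libraries). The fit with the replicate block, which pairs libraries by number, called 29 of 29 WAC positions for all substitutions and 11 of 28 for C to G, and it moved no count of calls by over 1.5 times. The matching shares of all C:G positions were not counted under the block or with replicates 3 and 4 alone, so that these counts describe WAC without a background. At G100 and G163 the C to G calls were lost under the block (log2 fold change -1.31 and -1.11). Calls of lower C to A at WAC in UNG-/- cells numbered 5 under TMM scaling, with 1 called higher, and 4 with replicates 3 and 4 alone. Of all 231 C:G positions tested, 15 were lower and 5 higher under TMM scaling. C263 turned to -0.12 under TMM scaling for all substitutions. The difference in C to T share was 21.02 percentage points with replicates 1 and 2 alone and 17.8 with replicates 3 and 4 alone, and for C to T alone the log2 ratio of mean excess was 2.32.

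Ratios of mean excess between classes of WAC moved with the way they were summarised (log2). With the median over positions, AAC over TAC was 0.37 in UNG-/- and -0.16 in UNG+/+ cells, WAC followed by a pyrimidine over a purine 1.15 and 1.45, the listed over the complementary strand 0.76 and 0.49, and WAC over WGC outside WGCW -0.11 and -0.70, in the same order of genotypes. Without the highest position of each class these were 0.022 for AAC over TAC in UNG-/- cells, 1.37 and 1.85 for the next base, 0.15 and 0.072 for the strand, and 0.62 for WAC over WGC in UNG-/- cells. Without AID-/- subtraction the next base gave 0.85 in UNG-/- and 0.89 in UNG+/+ cells, and WAC over WGC 0.43 and -0.25. For C to T alone the UNG+/+ values were -0.17 for AAC over TAC, 0.87 for the next base, -0.0467 for the strand and -0.23 for WAC over WGC. Leaving out positions near a polymorphic position gave 0.47 for WAC over WGC in UNG-/- cells. WAC minus SAC was 31.3 per 10000 in UNG-/- and 8.85 in UNG+/+ cells by the median, and 12.3 in UNG+/+ cells for C to T. The C to G difference between WACT and WACA in UNG+/+ cells, chosen after the data were seen, was 3.43 by the median and 2.78 without C506. The cause of these moves was not tested.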

Other observations

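The dependence of C to G on the next base was also looked at in the other classes of C:G positions, after the values at WAC were seen. In UNG+/+ cells the mean C to G excess over AID-/- was 6.15 ± 1.64 per 10000 at 19 WGCW positions followed by T and 1.47 ± 0.672 at 9 followed by A. It was 1.11 ± 0.316 at 6 SAC positions followed by T and -0.271 ± 0.107 at 7 followed by A (SD over 4 libraries each). At SGC positions the values were 0.413 ± 0.0543 where T followed (12 positions) and -0.00517 ± 0.109 where A followed (4 positions). WYC positions (a pyrimidine before the C and A or T before that) had 0.338 ± 0.0584 where T followed (32 positions) and -0.155 ± 0.129 where A followed (15 positions). SYC positions had 0.149 ± 0.0628 where T followed (20 positions) and -0.200 ± 0.0725 where A followed (28 positions). The lowest library value with T next lay above the highest with A next in each of these classes and at WAC. In UNG-/- cells the same values lay between -0.199 and 0.0668 per 10000. No test was made between these groups of positions. WAC held 34.3% ± 2.09 of the summed C to G excess of all C:G positions in UNG+/+ cells (SD, n = 4). That share includes C506, the highest of all C:G positions in C to G excess, and was not computed without it.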
